A study of Mus musculus with 6 samples.

Results

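The genes described here are the EGF receptor (ErbB) family and its ligands, chosen by gene symbol: the receptors Egfr, Erbb2 and Erbb3 and the ligands Areg, Ereg, Hbegf, Tgfa, Btc, Epgn and Nrg1. All 10 were found among the 53465 genes of the deposited table. RNA-seq was made from 4T1, a mouse mammary carcinoma line whose axitinib-resistant cells came from lesions that grew after surgery in mice dosed with axitinib at 100 mg/kg/day. Axitinib inhibits the VEGF receptor kinases. The resistant cells were kept in culture with 0.5 µM axitinib for over 2 months and stained with C12FDG, a compound that fluoresces once β-galactosidase has cut it. Cells with a high signal (SM positive, 3 libraries) were compared with cells with a low signal (SM negative, 3 libraries). Both fractions therefore share the line, the resistance and the drug, and no cells that had never met axitinib were analysed here.

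ErbB receptors are tyrosine kinases that work in pairs. EGFR binds EGF, amphiregulin (Areg), TGF-alpha (Tgfa) and epigen (Epgn), while betacellulin (Btc), HB-EGF (Hbegf) and epiregulin (Ereg) bind both EGFR and ERBB4. Neuregulin 1 (Nrg1) binds ERBB3 and ERBB4. ERBB2 has no known ligand and acts as a partner of the other receptors, and ERBB3 has a weak kinase and signals through such partners. The ligands are made as membrane proteins and most are released by ADAM proteases. In the mammary gland the family drives duct growth, with amphiregulin as a main ligand of puberty.

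None of the genes of the family moved past the threshold in a comparison of the fractions without regard to replicate number. The well-expressed members, Erbb2, Erbb3, Areg, Hbegf, Tgfa and Nrg1, differed by at most 1.11-fold between the fractions, and their libraries overlapped. The scarce ligands Epgn and Btc stood higher in every SM positive library than in any SM negative library, and Epgn passed once libraries were paired by replicate number. Of all genes tested, 19.9% separated the fractions in this way in either direction, and 14.1% passed with the pairing. The paired Epgn call ended without replicate 2, without replicate 3 and with limma-voom. Ereg had no count in any library.

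In edgeR's quasi-likelihood test, 0 of the 9 members tested passed an adjusted p of 0.05, where 1.35% of the 14038 genes tested did (1.14% higher and 0.214% lower in SM positive). At an unadjusted p under 0.05 the count was 2, Btc and Epgn, as for 13.6% of the genes tested. DESeq2 called 0 members and 334 genes in all, with 1 member (Epgn) and 10.7% of the genes tested at an unadjusted p under 0.05. Limma-voom called 0 members and 137 genes in all, with 2 members (Btc and Epgn) and 13.9% of the genes at an unadjusted p under 0.05. With the replicate number as a block, 1 of 9 members passed, against 14.1% of the genes tested (8.52% higher and 5.6% lower), so the share of members is close to that of the table as a whole. At an unadjusted p under 0.05 the blocked edgeR count was 3 of 9 (Btc, Epgn and Erbb3), or 33.3%, against 27.3% of the genes tested. The median log2 change over the 9 members was -0.02 in both fits, beside -0.00085 (no block) and -0.0011 (block) over the genes tested. CPM ranges did not overlap for 2 of 9 members, both higher, and for 19.9% of the genes tested (10.4% higher and 9.47% lower). All 3 same-number pairs differed in one direction for 5 of 9 members in CPM, Erbb2, Btc and Epgn higher and Erbb3 and Tgfa lower, and for 46.6% of the genes tested. For Erbb2 the number 3 pair differed by -0.001 in log2 CPM (prior count of 2) taken on library totals without TMM. Its sign there depends on the scaling. Whether the replicates are separate cultures or separate sorts is not given, and each p-value rests on the spread of these 6 libraries alone, which could be technical.

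**Figure D1:**
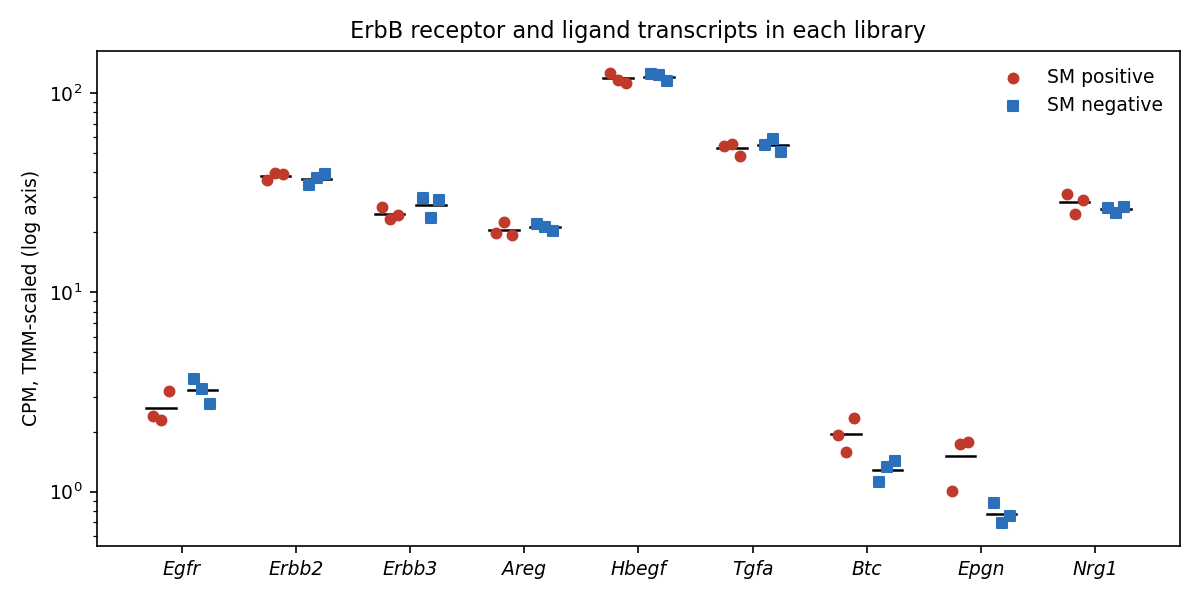
Level in CPM (counts scaled to library size and TMM, log axis) of the 9 members with counts, 1 point per library, SM positive as red circles and SM negative as blue squares, with the mean of 3 libraries as a line. Hbegf is highest at 112.9 to 125.8 CPM, and the points of the fractions separate for Btc and Epgn.

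Levels are given first as CPM, scaled by TMM (a correction for library composition), and fold changes as SM positive over SM negative. Libraries held 18733801 to 26533528 counts in all. Among 8 epithelial markers the keratins Krt7 and Krt18 were highest. Krt7 stood at 1314 ± 79.3 CPM in SM positive cells, against 1386 ± 15.2 CPM in SM negative cells (SD, n = 3 each). Krt18 stood at 984.1 ± 62.2 CPM in SM positive cells, against 1056 ± 33.4 CPM in SM negative cells. For Krt18, 11.4% of the 31-base stretches of its transcripts occur in other genes too. The lowest, named after their values were seen, were Krt19 (0.917 CPM in SM positive cells, against 1.71 CPM in SM negative cells) and Cldn7 (1.48 CPM in SM positive cells, against 1.41 CPM in SM negative cells). The 8 epithelial markers summed to 4204 to 4519 CPM in SM positive libraries, against 4484 to 4698 CPM in SM negative libraries. With the block, 3 of the 8 were lower, where 5.6% of the genes tested were, and none passed without it (0.214%). These were Epcam, Krt19 and Cldn4, named after their values were seen, and each call ended without replicate 1 (0.179, 0.104 and 0.124) and without replicate 3 (0.11, 0.237 and 0.0764). That of Krt19 also ended without replicate 2 (0.0506) and that of Epcam with DESeq2 (0.101). Leukocyte markers (8) summed to 4.90 to 6.43 CPM in SM positive libraries, against 6.57 to 8.81 CPM in SM negative libraries. Most of that was Cd68, which fell with the block (4.90 ± 0.721 CPM in SM positive cells, against 6.74 ± 1.10 CPM in SM negative cells, edgeR adjusted p = 0.0148). That call ended without replicate 1 (0.0612), 2 (0.0697) or 3 (0.115) and with DESeq2 (0.336). Adgre1 and Cd3e had no count in any library, and the next highest leukocyte gene, Csf1r, averaged 0.347 CPM in SM positive cells, against 0.316 CPM in SM negative cells. Endothelial markers (6) summed to 0.187 to 0.405 CPM in SM positive libraries and 0.474 to 0.695 CPM in SM negative libraries, with Pecam1 (0.118 CPM in SM positive cells, against 0.286 CPM in SM negative cells) and Vwf (0.122 CPM in SM positive cells, against 0.187 CPM in SM negative cells) highest and Cldn5 and Emcn at 0 throughout. Fibroblast and pericyte markers (7) summed to 5.84 to 8.10 CPM in SM positive libraries, against 4.36 to 5.05 CPM in SM negative libraries. Most of this was Pdgfra, which rose with the block (5.07 ± 1.11 CPM in SM positive cells, against 3.55 ± 0.253 CPM in SM negative cells, edgeR adjusted p = 0.0423), a call that ended without replicate 1 (0.0852), 2 (0.0564) or 3 (0.427), with DESeq2 (0.449) and with limma-voom (0.0762). Col1a1 averaged 0.755 CPM in SM positive cells, against 0.556 CPM in SM negative cells and Lum had no count. The part of these markers in any difference below was not tested.

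Among the receptors, Erbb2 was the most abundant. Its level was 36.7, 39.8 and 39.2 CPM in SM positive replicates 1, 2 and 3, against 34.7, 37.5 and 39.1 CPM in SM negative replicates 1, 2 and 3. SM positive was higher for numbers 1 and 2 and about level for number 3, the ranges overlapped, and the mean was 38.5 ± 1.67 CPM in SM positive cells, against 37.1 ± 2.25 CPM in SM negative cells. The log2 change was 0.06 ± 0.0727 (SE), with a 95% interval of 0.93-fold to 1.16-fold (edgeR adjusted p = 0.805). Erbb2 (ENSMUSG00000062312.5; GRCm38 chromosome 11, 98412470 to 98437716, plus strand) overlaps Mien1 on the opposite strand. Whether counting used strand is not given in the sources used here, and reads of such neighbours may be included.

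Erbb3, the neuregulin-binding partner of ERBB2, stood at 26.7, 23.4 and 24.3 CPM in SM positive libraries, against 29.6, 23.6 and 29.1 CPM in SM negative libraries. SM positive was lower within each of the 3 replicate numbers, but the ranges of the fractions overlapped. The means were 24.8 ± 1.75 CPM in SM positive cells, against 27.5 ± 3.35 CPM in SM negative cells, which is a log2 difference of -0.15 ± 0.101 (edgeR adjusted p = 0.582), with an interval of 0.773-fold to 1.05-fold. Blocking on the replicate number narrowed it to 0.826-fold to 0.99-fold, still short of the threshold over all genes (adjusted p = 0.135). Erbb3 lies on chromosome 10 (128567523 to 128589652, minus strand).

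Egfr itself was scarce in these cells. SM positive libraries had 2.40, 2.29 and 3.19 CPM, from 64, 49 and 63 counts, against 3.66, 3.26 and 2.75 CPM in SM negative libraries, from 92, 61 and 58 counts. Replicates 1 and 2 were lower in SM positive, replicate 3 was higher, and the ranges overlapped. The log2 change of -0.31 ± 0.195 (edgeR adjusted p = 0.547) had an interval of 0.6-fold to 1.09-fold, which includes both lower and higher levels in SM positive. Without the block, leaving out 1 library moved the change from -0.46 to -0.20. With it, the change was -0.14 (adjusted p = 0.812) without replicate 1, -0.22 (0.605) without replicate 2 and -0.56 (0.135) without replicate 3. Egfr lies on chromosome 11 (16752203 to 16918158, plus strand) and contains Egfros on the opposite strand. Erbb4, the remaining receptor, had no count in any library, which allows up to 0.113 to 0.16 CPM (3 counts per library, counting error only).

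**Figure D2:**
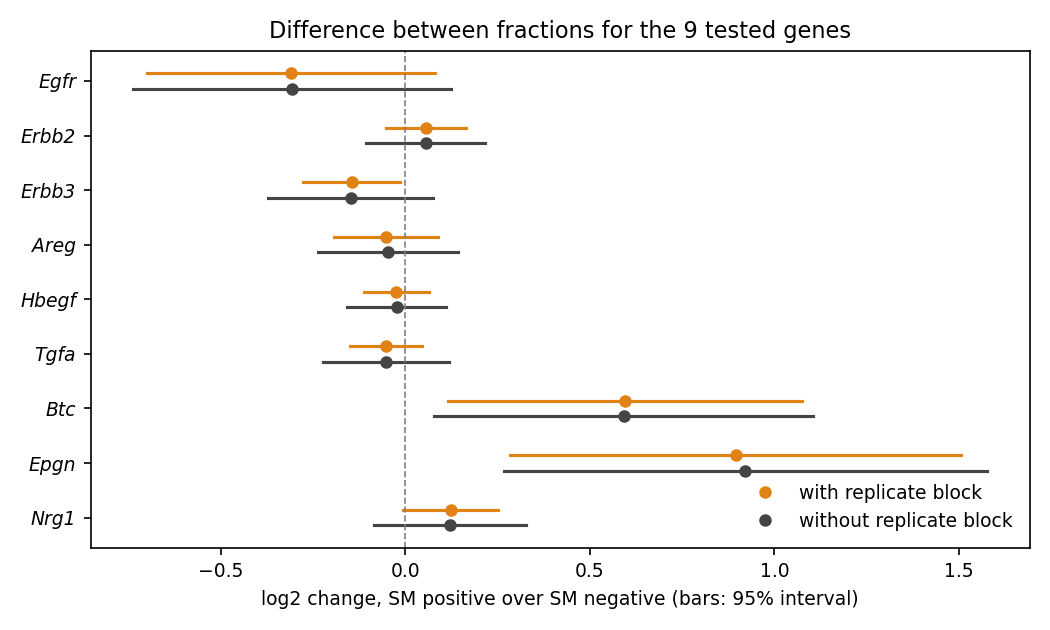
Log2 change, SM positive over SM negative, of the 9 tested members with a replicate block (orange) and without a block (dark grey), points for the estimate and bars for its 95% interval. Intervals are narrow around 0 for Erbb2, Areg, Hbegf and Tgfa and lie above 0 for Btc and Epgn. That of Erbb3 lies below 0 with the block (-0.276 to -0.0144) and spans 0 without it.

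Hbegf, a heparin-binding ligand of EGFR and ERBB4, led the ligands. It had 125.8, 116.8 and 112.9 CPM in SM positive libraries, against 124.1, 122.7 and 114.7 CPM in SM negative libraries. In both fractions replicate 1 was highest and replicate 3 lowest, and the fractions overlapped. Its log2 change was -0.02 ± 0.0609 (edgeR adjusted p = 0.911), with an interval of 0.896-fold to 1.08-fold. Hbegf lies on chromosome 18 (36504927 to 36515805, minus strand).

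Tgfa, the ligand first described from transformed cells, had 54.4, 55.3 and 48.5 CPM in SM positive libraries, against 55.0, 58.7 and 50.5 CPM in SM negative libraries. Each SM positive library lay slightly under the SM negative library of its number, and the ranges overlapped. The log2 change was -0.05 ± 0.0768 (edgeR adjusted p = 0.833; interval 0.857-fold to 1.08-fold). Tgfa lies on chromosome 6 (86195223 to 86275719, plus strand).

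Nrg1, which acts through ERBB3, reached 31.2, 24.8 and 29.0 CPM in SM positive libraries, against 26.5, 24.9 and 26.8 CPM in SM negative libraries. Replicates 1 and 3 were higher in SM positive and replicate 2 was level, with overlapping ranges. The log2 change was 0.12 ± 0.0928 (edgeR adjusted p = 0.635; interval 0.943-fold to 1.25-fold), and with the block the adjusted p was 0.206. Nrg1 lies on chromosome 8 (31814551 to 32884029, minus strand), where Gm26578 overlaps it on the opposite strand.

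The other ligand genes, Epgn, Ereg, Areg and Btc, are neighbours on chromosome 5, at 91027464 to 91035215 (plus strand), 91074622 to 91093646 (plus), 91139599 to 91148432 (plus) and 91357261 to 91402994 (minus). Over the 6 libraries Areg stood at 19.5 to 22.5 CPM, Btc at 1.11 to 2.33 CPM and Epgn at 0.695 to 1.77 CPM, with Ereg at 0. The bases before the annotated starts of Epgn, Areg and Btc are shown because Epgn and Btc had the highest log2 changes of the members and Areg is the abundant gene beside them. Sequences are from RefSeq (GRCm38), whose promoter table matched 6 of the 10 members, these 3 and Egfr, Erbb2 and Tgfa. Each runs 5′ to 3′ on the gene's own strand up to the base before the start (for Epgn, before the start that lies further upstream of the pair given by RefSeq and GENCODE). Capitals mark matches on either strand to TGACGTCA (the cAMP response element), TATAAA (the TATA box), TGANTCA (the AP-1 site) and GGGCGG (the GC box).
Epgn, chr5:91027267-91027463, plus strand: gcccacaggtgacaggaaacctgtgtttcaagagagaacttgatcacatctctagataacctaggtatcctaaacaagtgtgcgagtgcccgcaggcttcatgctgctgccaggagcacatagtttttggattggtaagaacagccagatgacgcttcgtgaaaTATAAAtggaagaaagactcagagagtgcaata
Areg, chr5:91139349-91139598, plus strand: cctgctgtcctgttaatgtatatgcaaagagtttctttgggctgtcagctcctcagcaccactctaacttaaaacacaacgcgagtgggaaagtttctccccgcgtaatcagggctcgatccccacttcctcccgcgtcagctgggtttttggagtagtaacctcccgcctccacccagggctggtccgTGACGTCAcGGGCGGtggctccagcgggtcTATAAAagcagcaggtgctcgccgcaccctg
Btc, chr5:91402995-91403244, minus strand: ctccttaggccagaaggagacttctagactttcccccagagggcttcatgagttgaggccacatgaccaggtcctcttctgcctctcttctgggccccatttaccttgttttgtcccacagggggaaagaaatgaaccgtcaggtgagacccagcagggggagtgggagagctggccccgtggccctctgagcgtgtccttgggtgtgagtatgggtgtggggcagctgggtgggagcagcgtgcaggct

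The Areg window held a cAMP response element that begins 61 bases before the start, a GC box at 52 bases and a TATA box at 31 bases, none of which overlap. Of 32817 promoter windows of 250 bases, 1.55% held the cAMP response element, 32.7% the GC box, 12.4% the TATA box and 6.75% the AP-1 site. The Epgn window of 197 bases held a TATA box 33 bases before its start and no match to the other motifs. In windows of that length the TATA box occurred in 9.05%, the cAMP response element in 0.798%, the GC box in 24.1% and the AP-1 site in 5.45%. Those windows were the first 197 of the 250 bases before each RefSeq start. They stop short of that start, while the Epgn window runs up to its GENCODE start. They lack the bases nearest the start, so these rates are no like comparison for the TATA box of Epgn. No match to the 4 motifs was present in the Btc window. GC content was 45.7% for Epgn, 57.2% for Areg and 59.6% for Btc, where the median window had 51.8% (197 bases) and 52.4% (250 bases). The 197-base median has the same limit, since its windows stop short of the RefSeq start.

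Areg, whose window above holds the letters of the cAMP response element, did not separate the fractions. It had 19.8, 22.5 and 19.5 CPM in SM positive libraries, against 22.1, 21.4 and 20.4 CPM in SM negative libraries. The ranges overlapped, the log2 change was -0.05 ± 0.0859 (edgeR adjusted p = 0.866), and the interval ran from 0.848-fold to 1.10-fold.

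Epgn, which encodes epigen, a low-affinity EGFR ligand, had 1.01, 1.73 and 1.77 CPM in SM positive libraries, against 0.875, 0.695 and 0.758 CPM in SM negative libraries. The values rest on 27, 37 and 35 counts in SM positive and on 22, 13 and 16 counts in SM negative libraries, and SM positive replicate 1 lay closest to the SM negative range. The means were 1.51 ± 0.426 CPM in SM positive cells, against 0.776 ± 0.0918 CPM in SM negative cells. The fitted change was 1.89-fold, a log2 change of 0.92 ± 0.296 (SE), with an interval of 1.2-fold to 2.98-fold and an edgeR adjusted p of 0.204. With the replicate block it was 0.89 ± 0.293, with an adjusted p of 0.0455, just under the threshold. That call ended without replicate 2 (0.219), without replicate 3 (0.286) and with limma-voom (0.0755), and it held without replicate 1 (0.0429). DESeq2 with the block gave Epgn no adjusted p, and its unadjusted p there was not under 0.05. No fit without the block called it.

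Btc, which encodes betacellulin, had 1.91, 1.59 and 2.33 CPM in SM positive libraries, against 1.11, 1.34 and 1.42 CPM in SM negative libraries. Counts were 51, 34 and 46 in SM positive and 28, 25 and 30 in SM negative libraries, and the fractions did not overlap. The means were 1.94 ± 0.372 CPM in SM positive cells, against 1.29 ± 0.159 CPM in SM negative cells. The fitted change of 1.51-fold, a log2 change of 0.59 ± 0.232, did not pass (edgeR adjusted p = 0.289; 0.0923 with the block), and its interval was 1.06-fold to 2.15-fold.

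Ereg, between Epgn and Areg in the genome, had no count in the 6 libraries, and the limit of 3 counts per library is 0.113 to 0.16 CPM. A fold cannot be given for it. Egf, the founding ligand of the family, was scarce, at 0.841 ± 0.0846 CPM in SM positive cells, against 0.680 ± 0.066 CPM in SM negative cells. Of the other neuregulins, Nrg2 had 1.03 ± 0.214 CPM in SM positive cells, against 0.86 ± 0.125 CPM in SM negative cells, Nrg4 had 1.55 ± 0.231 CPM in SM positive cells, against 1.47 ± 0.245 CPM in SM negative cells, and Nrg3 had no count. None of Egf, Nrg2 and Nrg4 passed edgeR's, DESeq2's or limma-voom's test, and 0 of the 3 had an unadjusted p under 0.05 in any of them.

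Within 500 kb of the Areg start, 5 genes outside the family were tested, and they carry chemokines and a folate enzyme. Cxcl5, a neutrophil chemokine, rose with the block (24.3 ± 0.254 CPM in SM positive cells, against 20.9 ± 2.58 CPM in SM negative cells, log2 change 0.21, edgeR adjusted p = 0.0471) and not without it (0.357). Its call ended without replicate 2 (0.178) or 3 (0.361), with DESeq2 (0.453) and with limma-voom (0.0946). Without the block, the chemokine genes Cxcl1 and Cxcl3 had log2 changes of 0.09 and -0.04, the platelet chemokine Ppbp -0.29, and Mthfd2l, a mitochondrial folate enzyme that lies next to Epgn, 0.04. None of these 4 passed in either fit. Epgn and Btc thus stood above the nearest tested genes in log2 change, but the difference between neighbours was not tested.

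**Figure D3:**
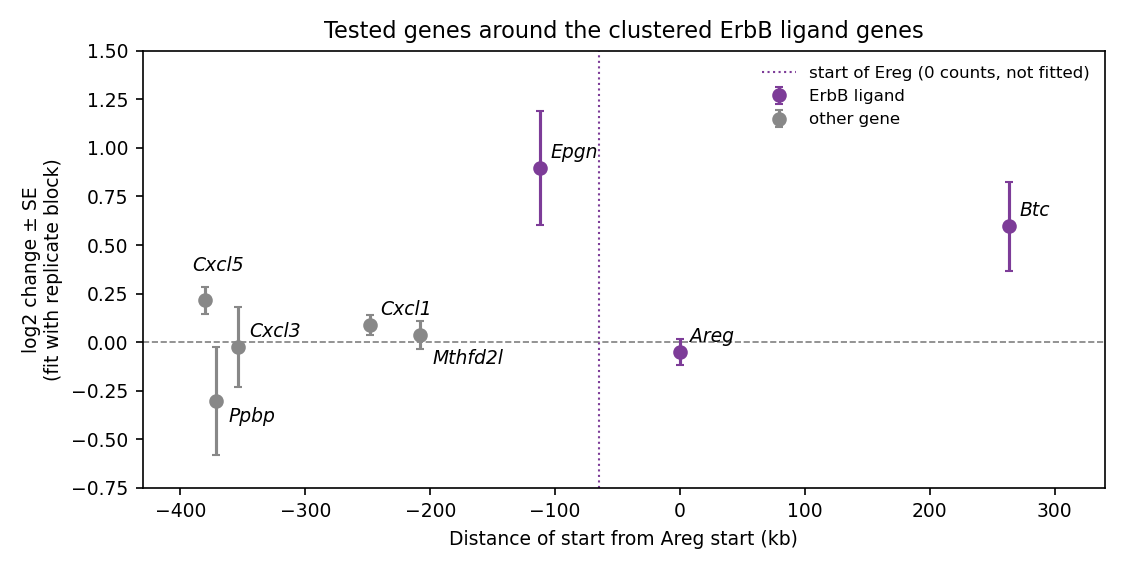
Log2 change (SM positive over SM negative, fit with replicate block, bars ± SE) of the 8 tested genes around Areg against the distance of their starts from the Areg start in kb. Epgn (0.89) and Btc (0.60) lie above Areg (-0.05) and the chemokine genes, and the dotted line marks the start of Ereg.

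The 3 genes with mean levels of at least 5 CPM whose log2 CPM followed Epgn most closely over the 6 libraries were Elmo3 (Pearson r = 0.99), Eid1 (0.984) and Actr10 (0.974), out of 10561 compared. The log2 CPM in these correlations was taken on library totals without TMM. In all, 15 genes reached an r of at least 0.95. Eid1 stood at 88.6 ± 8.46 CPM in SM positive cells, against 70.8 ± 2.35 CPM in SM negative cells, and it rose with the block (edgeR adjusted p = 0.00768) and not without it (0.0651). The blocked call ended without replicate 3 (0.0924), and without the block DESeq2 (0.014), no filter (0.000333) and leaving out SM positive replicate 1 (0.0225) called it. Elmo3 passed in neither fit (edgeR adjusted p = 0.15 with the block, 0.401 without). Actr10 passed with the block only (0.0362; 0.292 without), a call made in 3 of 8 blocked settings. All 3 genes were picked for following Epgn over these same 6 libraries, so their p-values are no separate support. These points share libraries and depth, and the values are a description only.

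To compare levels between genes, counts were divided by exon length and scaled to the same total in each library (TPM). In TPM over the 6 libraries the order was Hbegf (65.2 to 71.8), Areg (44.8 to 50.9), Tgfa (20.9 to 24.9), Erbb2 (17.5 to 21.1), Erbb3 (10.7 to 13.3), Nrg1 (6.61 to 8.32), Epgn (1.06 to 2.74), Btc (0.65 to 1.44), Egfr (0.557 to 0.852) and Ereg (0). Ranges overlapped for the neighbours Tgfa and Erbb2, Epgn and Btc, and Btc and Egfr. With the longest transcript as the length, Nrg1 (mean 10.9 TPM) came before Erbb3 (9.41 TPM), and the rest of the order was the same. Areg had fewer CPM than Tgfa and more TPM, its exons adding up to 1215 bases and those of Tgfa to 6490 bases.

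The summed TPM of the 7 ligands was 148.3 ± 4.77 in SM positive cells, against 146.7 ± 5.07 in SM negative cells, and that of the 3 receptors was 32.5 ± 0.444 in SM positive cells, against 32.5 ± 1.82 in SM negative cells. Hbegf made up 45.7% ± 1.76 of the ligand sum in SM positive cells, against 46.1% ± 0.0819 in SM negative cells. Areg followed with 31.6% ± 1.93 in SM positive cells, against 32.4% ± 0.393 in SM negative cells, and Tgfa with 15.2% ± 0.481 in SM positive cells, against 15.6% ± 0.735 in SM negative cells. These shares depend on the length used. With the longest transcript, Hbegf made up 53.8% in SM positive cells, against 54.2% in SM negative cells. Areg then made up 22.3% in SM positive cells, against 22.8% in SM negative cells, and Tgfa 15.3%, against 15.7%. Epgn took 1.56% ± 0.473 in SM positive cells, against 0.794% ± 0.0882 in SM negative cells. Of the receptor sum, Erbb2 made up 62.9% ± 2.55 in SM positive cells, against 59.5% ± 3.6 in SM negative cells, Erbb3 35.1% ± 2.6 in SM positive cells, against 38.1% ± 3.52 in SM negative cells, and Egfr 1.97% ± 0.356 in SM positive cells, against 2.39% ± 0.411 in SM negative cells. Erbb2 thus exceeded Egfr in TPM by 32.6 ± 5.61 times in SM positive cells, against 25.5 ± 5.19 times in SM negative cells. In sorted bulk cells, a change in RNA per cell and a change in the share of cells that express a gene cannot be told apart.

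**Figure D4:**
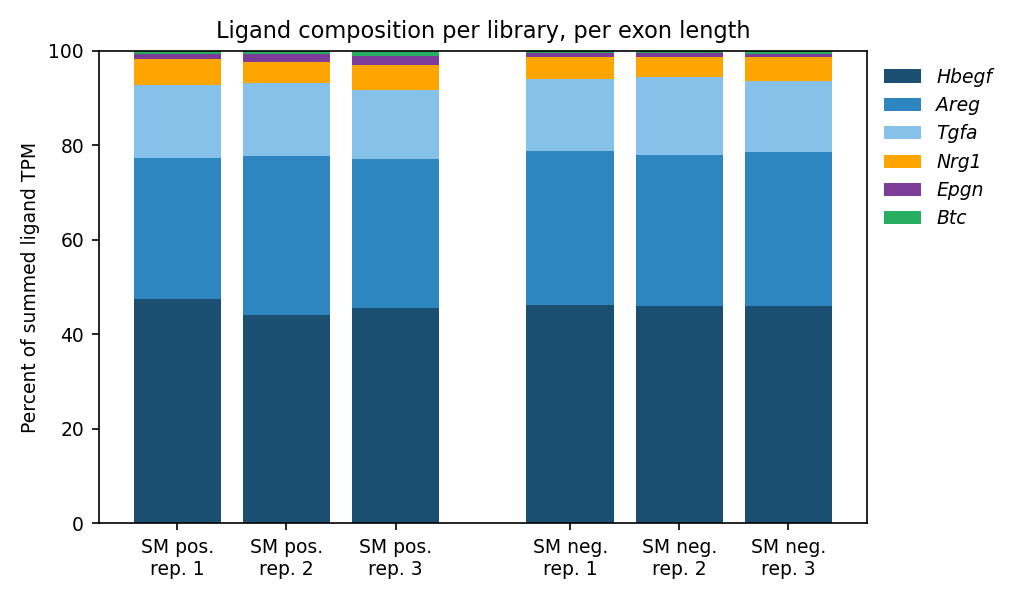
Share of each ligand in the summed ligand TPM of each library, SM positive replicates left of SM negative replicates. Hbegf, Areg and Tgfa fill most of every bar in both fractions, and Epgn and Btc form the thin bands at the top.

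Proteases that release the ligands were described together with genes that regulate such proteases, such as Rhbdf1 and Cd9, in a list of 14 genes, of which 13 were tested. Without the block 1 rose and none fell, and with it 4 rose and 1 fell (38.5% of the list, against 14.1% of the genes tested with the block and 1.35% without). The blocked count of 5 was 2 without replicate 1, and 3 both without replicate 3 and with DESeq2. Over all genes tested, the blocked count of 1982 fell to 705, 886 and 612 in these settings. The median log2 change was -0.0051 without the block and -0.0039 with it. Bace1, the β-secretase, which also cuts neuregulin 1, had 252.8, 253.8 and 264.8 CPM in SM positive libraries, against 200.5, 211.1 and 213.3 CPM in SM negative libraries. The fractions did not overlap, and the log2 change was 0.30 ± 0.0519 (edgeR adjusted p = 0.0241; 1.96e-05 with the block). Without the block its call ended when SM positive replicate 2 or 3 or any SM negative library was left out (0.0604 to 0.0999). Genes on the opposite strand, Rnf214 among them, overlap Bace1.

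Adam10, the main sheddase of EGF and betacellulin, stood at 182.9 ± 2.89 CPM in SM positive cells, against 161.8 ± 9.71 CPM in SM negative cells and rose with the block (edgeR adjusted p = 0.00624; 0.209 without). Its call ended without replicate 1 (0.102) or 3 (0.0918). Adam17, named after its values were seen, is the main sheddase of amphiregulin, TGF-alpha, HB-EGF and epigen. It averaged 100.6 CPM in SM positive cells, against 90.3 CPM in SM negative cells, which is a log2 difference of 0.16 ± 0.0442 with the block (edgeR adjusted p = 0.0205; 0.25 without), a call that ended without replicate 1 (0.362) or 3 (0.088) and with DESeq2 (0.229). Adam15 rose with the block by 0.23 ± 0.0455 on the log2 scale (edgeR adjusted p = 0.00179; 0.163 without). The Adam15 call ended without replicate 1 (0.0927) and with DESeq2 (0.0601), and without the block no filter called it (0.0384). Adam8 had 42.3, 29.3 and 27.3 CPM in SM positive libraries, against 54.8, 38.5 and 40.1 CPM in SM negative libraries. Replicate 1 was highest in both fractions and SM positive was lower within every number, so that the ranges overlapped while the blocked fit passed (log2 change -0.43 ± 0.0543, edgeR adjusted p = 1.32e-05; 0.422 without the block).

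Of 33 adaptors and transducers of ErbB signals, 1 rose and none fell without the block, and 5 rose and 1 fell with it. The blocked share of 18.2% was near the 14.1% of all genes tested, and the unblocked 1 of 33 stands beside 1.35%. Without the block DESeq2 called 2 and limma-voom 0, where 334 and 137 of the 14038 genes tested passed. At an unadjusted p under 0.05 DESeq2 had 4 (12.1%, against 10.7% of the genes tested) and limma-voom 6 (18.2%, against 13.9%). With the block the count was 1 without replicate 1 and 2 with DESeq2. Over all genes tested, the blocked count of 1982 fell to 705 and 612 in these settings. The median log2 change was 0.05 in both fits. Pik3r1, the p85α regulatory subunit of PI3-kinase, had 39.0, 45.3 and 45.2 CPM in SM positive libraries, against 29.2, 34.0 and 33.0 CPM in SM negative libraries. The fractions did not overlap (log2 change 0.43 ± 0.0863, edgeR adjusted p = 0.0415; 8.74e-06 with the block). Without the block this call ended when any library but SM positive replicate 1 was left out (0.106 to 0.156), with limma-voom (0.0646) and without robust estimation (0.0525). Gm36638 overlaps Pik3r1 on the same strand.

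The ErbB adaptor Shc1 (181.9 ± 8.48 CPM in SM positive cells, against 162.8 ± 4.91 CPM in SM negative cells) and the RAS activator Sos2 (52.1 ± 3.41 CPM in SM positive cells, against 45.4 ± 1.68 CPM in SM negative cells) rose with the block (edgeR adjusted p = 0.0102 and 0.00879) and not without it (0.235 for both). The Shc1 call ended without replicate 1 (0.174) and with DESeq2 (0.0649), and the Sos2 call without replicate 1 (0.0952) or 3 (0.0955) and with DESeq2 (0.22). For Shc1, 10.1% of the 31-base stretches of its transcripts are found in another gene as well. Nras, a RAS GTPase, had 1145, 1189 and 1263 CPM in SM positive libraries, against 1403, 1478 and 1381 CPM in SM negative libraries. Every SM positive library was lower, and the log2 change of -0.25 ± 0.0445 passed with the block (edgeR adjusted p = 0.00078), and without the block it did not (0.0659). The blocked call ended without replicate 1 (0.0551), and without the block DESeq2 (0.0072) and no filter (0.0081) called it.

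Genes that restrain or degrade ErbB receptors (18 tested) gave 0 calls with edgeR without the block, with 3 at an unadjusted p under 0.05 (16.7%, against 13.6% of the genes tested). DESeq2 called 1 and limma-voom 0, where 334 and 137 of the 14038 genes tested passed. Each had 2 at an unadjusted p under 0.05 (11.1%, against 10.7% of the genes tested with DESeq2 and 13.9% with limma-voom). With the block 3 rose and none fell, and this 16.7% was near the 14.1% of all genes tested. The count was 0 without replicate 1, 2 without replicate 3 and 2 with DESeq2. Over all genes tested, the blocked count of 1982 fell to 705, 886 and 612 in these settings. The median log2 change of the list was 0.06 in both fits. Lrig1, which promotes the degradation of ErbB receptors, had 198.6, 175.9 and 169.6 CPM in SM positive libraries, against 163.5, 155.9 and 145.1 CPM in SM negative libraries. The fractions did not overlap (log2 change 0.23 ± 0.0407 with the block, edgeR adjusted p = 0.000697; 0.187 without). The Lrig1 call ended without replicate 1 (0.053), and without the block no filter called it (0.0173). Slc25a26 overlaps Lrig1 on the opposite strand. Ptpn1, a tyrosine phosphatase that acts on EGFR, stood at 76.5 ± 4.2 CPM in SM positive cells, against 64.1 ± 1.44 CPM in SM negative cells (edgeR adjusted p = 0.000646 with the block, 0.0739 without). The Ptpn1 call ended without replicate 1 (0.0596), and without the block DESeq2 (0.0443) and no filter (0.0121) called it. Socs5, a suppressor that limits EGFR signalling, stood at 65.3 ± 3.68 CPM in SM positive cells, against 58.8 ± 3.37 CPM in SM negative cells (edgeR adjusted p = 0.0247 with the block, 0.358 without), with overlapping ranges. The Socs5 call ended without replicate 1 (0.18), 2 (0.0547) or 3 (0.122) and with DESeq2 (0.36).

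Genes that report or damp ERK activity downstream of ErbB receptors (24 tested) gave 1 that rose and none that fell without the block, and 7 that rose and 1 that fell with it. The blocked share was 33.3%, against 14.1% of the genes tested, and 1.35% of them passed without the block. The blocked count of 8 was 5 without replicate 1 and with DESeq2, and 4 without replicate 3. Over all genes tested, the blocked count of 1982 fell to 705, 612 and 886 in these settings. The median log2 change was 0.01 in both fits, with 12 of 24 genes above 0. Spry1, a feedback inhibitor of receptor kinase signals, had 183.4, 183.2 and 202.8 CPM in SM positive libraries, against 132.7, 145.6 and 158.4 CPM in SM negative libraries. The fractions did not overlap (log2 change 0.38 ± 0.0726, edgeR adjusted p = 0.0332; 2.2e-06 with the block). Without the block its call ended when SM positive replicate 2 or 3 or any SM negative library was left out (0.054 to 0.138). Gm42922 overlaps Spry1 on the opposite strand.

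Dusp6, the ERK phosphatase, stood at 104.9 ± 13.4 CPM in SM positive cells, against 86.4 ± 7.89 CPM in SM negative cells, and it passed with the block (log2 change 0.28 ± 0.0427, edgeR adjusted p = 0.000164; 0.244 without, and 0.00253 without block or filter). The Dusp6 ranges of the fractions overlapped. Fos, an immediate early gene, varied more with replicate number than with fraction. It had 34.6, 11.2 and 24.3 CPM in SM positive libraries, against 25.8, 9.19 and 16.4 CPM in SM negative libraries. The blocked log2 change was 0.44 ± 0.0708 (edgeR adjusted p = 0.000223), and the unblocked one 0.44 ± 0.564 (0.813). Myc was the 1 gene of the list that fell, at 251.3 ± 15 CPM in SM positive cells, against 282.9 ± 26.3 CPM in SM negative cells (edgeR adjusted p = 0.00886 with the block, 0.345 without), with overlapping ranges. The Myc call ended without replicate 2 (0.0575) or 3 (0.0851).

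**Figure D5:**
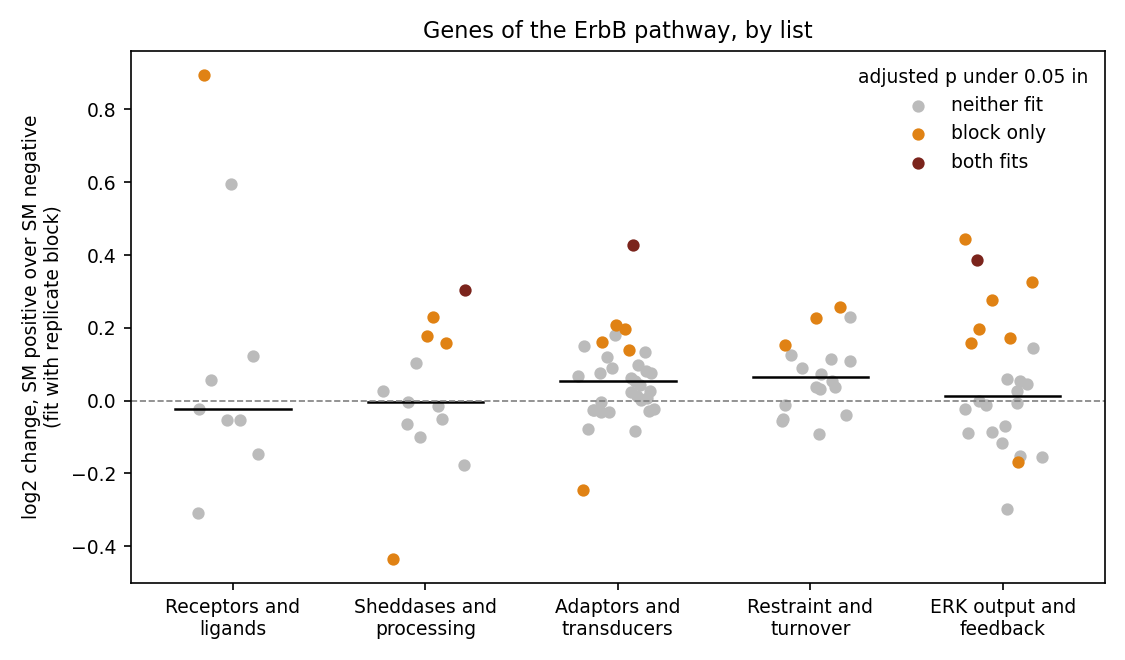
Log2 change (SM positive over SM negative, fit with replicate block) of each tested gene in the receptor and ligand group and in the lists of sheddases, adaptors, restraint genes and ERK outputs, with the list's median as a line. Grey points passed in neither fit, orange points with the block only (1, 4, 5, 3 and 7 from left to right) and dark red points in both fits (Bace1, Pik3r1 and Spry1).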

How the data were processed

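The authors deposited expected counts per gene, 1 column per library, which need not be whole. RSEM 1.3.1, STAR 2.6.0a, FastQC 0.11.5 and the build GRCm38 are listed per the submitters' processing notes. The sources used here do not give the annotation release or strand setting. Per the labels' protocols, polyadenylated RNA was prepared with a stranded kit. Symbols, positions (1-based) and lengths came from GENCODE M21 by Ensembl identifier without version (99.8% matched).

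Counts were rounded, filtered (edgeR filterByExpr, minimum count 10) and scaled by TMM. All 9 members that passed the filter exceeded its cutoff of 0.469 CPM in all 6 libraries. Fractions were compared with edgeR's quasi-likelihood test (edgeR 4.0.16, R 4.3.3, robust), with Benjamini-Hochberg adjustment over all genes and a threshold of 0.05. SEs come from the F statistic, and 95% intervals of single genes are not adjusted. Where no other tool is named, an adjusted p is edgeR's. The procedure was tested on simulated data with planted changes larger than most of those reported here, so that test does not cover small changes.

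The labels do not say what replicate numbers mark. Deviations of log2 CPM (library totals, without TMM) from fraction means correlated at 0.22, 0.28 and 0.196 between same-number libraries, all above 0.1. Between others the correlations were -0.175 to -0.0437. Deviations within a fraction cancel out, so the negative values follow from the positive ones and are no separate support. On the basis of the same-number values libraries were treated as paired, and the blocked fit is printed beside results it changes. Other settings were RLE factors, library totals, no filter, DESeq2 1.42.0, a filter that asked for over 1 CPM in at least 3 libraries, no robust estimation, limma-voom (limma 3.58.1), an adjusted p of 0.01, and libraries or pairs left out. Fits with a library or pair left out rest on fewer libraries, so a call can end there through lost power alone. The members and lists were chosen with earlier results of these data known. Besides the members, the text names the other family genes, up to 3 rising and 3 falling genes per list that passed with the block at 1 CPM or more, tested neighbours of Areg within 500 kb, the 3 genes most like a called member, and the 2 highest markers per cell type. Others are said to be named after their values were seen.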

Additional observations from a re-analysis of the deposited data

How the results depend on the processing

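The count of genes past the threshold, 190 as reported, was 1982 with the replicate block, 663 with no filter, 334 with DESeq2, 33 at an adjusted p of 0.01, and 25 to 123 with 1 library left out. Blocked fits gave 1975 with RLE factors, 2066 with the filter of more than 1 CPM, 612 with DESeq2, 1586 with limma-voom, and 705, 1793 and 886 without replicate 1, 2 and 3. The count of members, 0 as reported, was 1 (Epgn) with the replicate block, and also with the block and RLE factors, with the block and the filter of more than 1 CPM (which Epgn passes through its SM positive libraries) and with the block without replicate 1. The call under that filter is no support, since the filter selects on the SM positive libraries. With the block, DESeq2 gave Epgn no adjusted p and had 0 members at an unadjusted p under 0.05. None of the other 8 members was called in any of 21 settings. Small changes crossed 0 for Areg (0.0028 with the block without replicate 1), Hbegf (-0.071 to 0.011 with 1 library left out), Tgfa (-0.11 to 0.0045), Nrg4 (-0.0595 to 0.195), Cxcl1 (-0.024 to 0.24), Cxcl3 (-0.23 to 0.32, 0.0013 with limma-voom, 0.16 with the block without replicate 1) and Mthfd2l (-0.0079 to 0.072, and -0.013 with the block without replicate 2). The cause was not tested. Egfr, Btc, Epgn, Egf, Nrg2 and Nrg4 had under 100 counts per library, which limits their precision.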
